A study of Macaca mulatta with 30 samples.

Results

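The translation factors and tRNA synthetases on the rhesus macaque GeneChip were compared among cerebral cortex, an immortalized fibroblast cell line, pancreas, testis and thymus. The members were the genes whose symbols name an initiation factor (EIF), an elongation factor or its methyltransferase (EEF), a release factor (ETF1, GSPT), a cytosolic poly(A)-binding protein (PABPC) or an aminoacyl-tRNA synthetase (ARS). The rule was applied to probesets with a single gene symbol, and the probeset with the highest average over all 30 arrays stood for its gene. It found 70 of 14133 genes, measured by 148 of 24969 such probesets. The choice did not use differences between tissues.

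Proteins are made in a fixed sequence of steps. The initiation factor eIF2 brings the first tRNA to the small ribosomal subunit, eIF3 holds that subunit ready, and the cap-binding complex of eIF4E, eIF4G and the helicase eIF4A recruits the mRNA. The elongation factor eEF1A then delivers each tRNA after a synthetase has charged it with its amino acid, eEF2 moves the ribosome along, and eRF1 ends the chain. Kinases of eIF2 slow initiation under stress, and the pancreas, which secretes large amounts of enzyme, is known for its need of the kinase PERK.

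RNA of each source was taken once, from rhesus macaque tissue or, for the fibroblasts, from a cultured cell line, and 2 aliquots of it were labeled and hybridized at each of 3 centers (Oregon, Nebraska and Yerkes). This gave 30 arrays, 6 for each tissue and 10 for each center. No treatment or genetic change was listed for any of the sources other than the immortalization of the fibroblasts, and neither the age nor the number of animals was used here. Because each tissue stands for 1 RNA sample, the p-values measure how labeling and hybridization varied and say nothing of variation between animals. In such bulk RNA, more cells of a type and more of a transcript in each cell cannot be told apart.

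All values are signals on the log2 scale. A gene was called higher (or lower) in a tissue when a limma model with a term for center placed it above (or below) each remaining tissue, all 4 adjusted p-values being under 0.05. The gap is the log2 difference to the nearest of those tissues, with its standard error (SE). Levels of different probesets were not compared, except that the difference between the 3′ and 5′ control sets of a transcript was compared between tissues.

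The tissues carried their defining markers: all 4 cortex markers measured, 5 of 6 fibroblast markers, all 6 acinar markers of the pancreas, all 4 markers of testis somatic cells, 3 of 5 germ cell markers and 3 of 4 thymocyte markers were called higher in the tissue of that name. The exceptions were THY1, which was highest in cerebral cortex, the germ cell genes PRM1 and ACR, which were called higher in pancreas, and the thymocyte gene CD1E. PRM1 and ACR had their lowest means in testis, at 6.35 and 5.69, and PRM1 was called lower there. Of 3 islet markers, 2 were called higher in pancreas. The arrays from Yerkes had the highest mean over the members, 8.93, against 8.45 at Oregon and 8.52 at Nebraska. The paper rated the pancreas arrays as lower in quality and advised caution with their data. It gave them larger scaling factors, which bring an array to a set mean intensity, and larger standardized errors than the other arrays. The pancreas arrays also had the highest median signal of all probesets at each center. Calls that rest on pancreas were therefore also taken without its arrays, and again after quantile normalization of all 30 arrays together (joint normalization) in place of the deposited normalization within centers. All 4 red blood cell markers (HBA, HBB, AHSP and ALAS2) were called higher in pancreas under both normalizations, with mean levels of 6.18 to 9.96 there as deposited, and the part of such cells in the calls for pancreas was not tested.

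Of the 70 members, 61 (87.1%) lay above the array's median on all 30 arrays, as did 47.5% of all genes. The 9 that did not were EEF1D, EEF1E1, EIF2AK3, EIF4E, EIF4E3, EIF5A, EIF5A2, RARS2 and YARS2, each below the median on at most 8 arrays. The range of a member's tissue means had a median of 1.23, where that of all genes was 1.20. It ran between 0.37 for FARS2, the mitochondrial phenylalanine synthetase, and 5.20 for the elongation factor EEF1A2. A range of at least 2 was found in 10 members (14.3%) and in 24.8% of all genes.

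Most members differed between tissues. In all, 48 members (68.6%) were called higher in a tissue, where 73.4% of all genes were, and 44 (62.9%) were called lower in a tissue, where 47.8% of all genes were. Both calls applied to 32 members, only a higher call to 16 and only a lower call to 12. The direction was the same at all 3 centers for 45 of the 48 higher calls and for 42 of the 44 lower calls. The exceptions were EIF4G1, EIF5B and FARSA among the higher calls, and EIF1 and EIF2AK3 among the lower calls. In 44 members (62.9%) both arrays of the highest tissue lay above all other arrays at each center, a pattern that 60.5% of all genes showed. The 10 members without a call were EEF2, EIF2B1, EIF2B5, EIF3J, EIF3K, EIF5A, FARS2, GARS1, MARS1 and MARS2.

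The calls were spread unevenly over the tissues. Fibroblast held 27 higher calls (38.6% of members), where 16.7% of all genes were called. Cerebral cortex held 6 (8.57%, all genes 13.3%), thymus 8 (11.4%, all genes 12.6%), testis 4 (5.71%, all genes 9.71%) and pancreas 3 (4.29%, all genes 21.2%). Of the lower calls, cerebral cortex held 23 (32.9% of members, all genes 12.1%) and pancreas 15 (21.4%, all genes 15.1%). Testis held 3 (4.29%, all genes 4.95%), thymus 2 (2.86%, all genes 9.30%) and fibroblast 1 (1.43%, all genes 6.35%). Under joint normalization 11 members were higher in fibroblast and 8 lower in pancreas, shares much closer to those of all genes. Pancreas then held 11 higher calls in place of 3. The lower calls in cerebral cortex numbered 22 under that normalization.

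**Figure D1:**
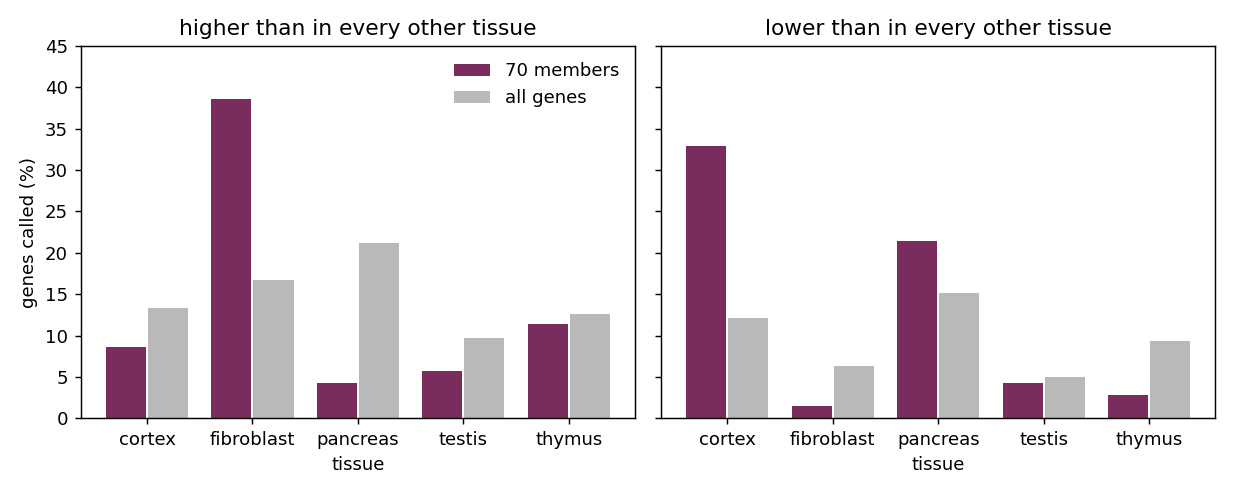
Share of genes called (y axis, percent) by tissue (x axis) among the 70 members (dark bars) and among all 14133 genes (grey bars), for calls higher (left panel) and lower (right panel) than in every other tissue. As deposited, the members exceed all genes among the higher calls only in fibroblast, at 38.6% and 16.7%. Among the lower calls they do so in cerebral cortex and pancreas. The excess in fibroblast and in pancreas was much smaller under joint normalization, which is not shown. The higher calls in pancreas then numbered 11 in place of 3.

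The median member lay 0.44 above the mean of the 5 tissues in fibroblast, with 54 of 70 members above 0, and 0.36 below it in cerebral cortex, with 21 above 0. In all genes these medians were -0.01 and -0.07. In pancreas the median member lay at -0.22 as deposited and at 0.16 after quantile normalization of all arrays together, so the side of 0 on which it lay depended on the scaling. After that normalization the medians were 0.23 in fibroblast and -0.35 in cerebral cortex, and no median over all genes moved by more than 0.09.

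**Figure D2:**
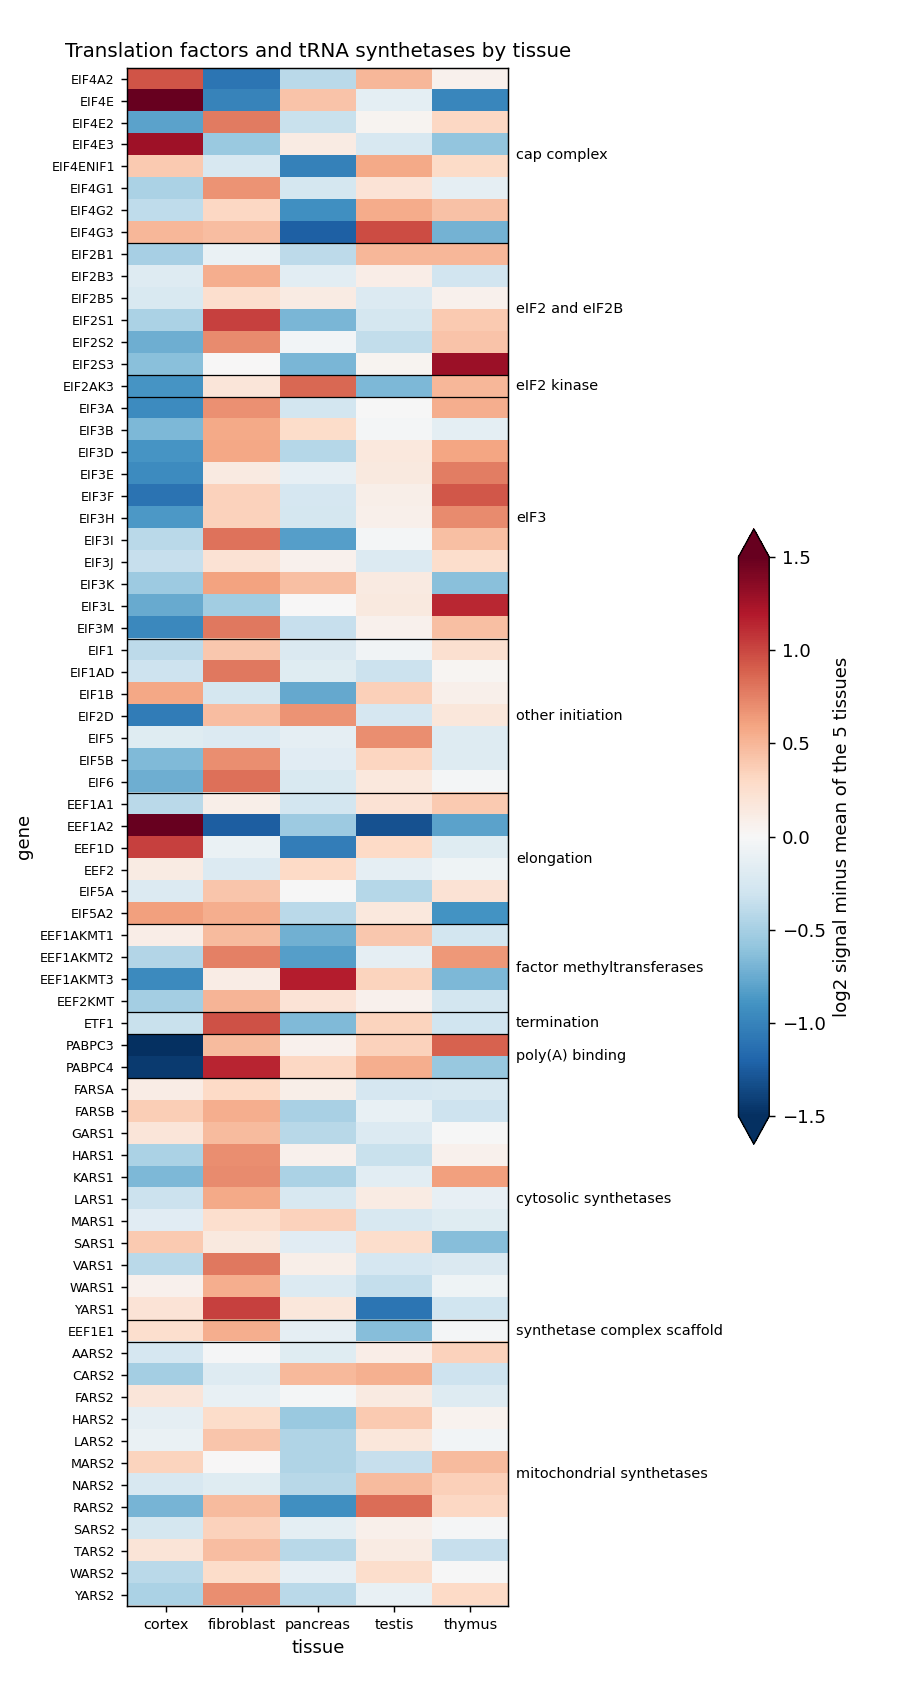
Log2 signal of each of the 70 members (rows, grouped by role) in each tissue (columns), minus its mean over the 5 tissues; red is above and blue below that mean, and the colors saturate at 1.5. Cerebral cortex is blue for all 11 eIF3 subunits and fibroblast is red for all 11 cytosolic synthetases, while EEF1A2, EIF4E and EIF4E3 are red in cerebral cortex.

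The largest difference among the members was that of EEF1A2, the form of eEF1A known to replace EEF1A1 in adult neurons and muscle. Its signal (probeset MmugDNA.37797.1.S1_at) was 11.21 to 12.35 with a median of 11.82 over the 6 cerebral cortex arrays. The highest value on any of the other 24 arrays was 8.04, in pancreas. The medians there were 7.25 for pancreas, 6.93 for thymus, 6.62 for fibroblast and 6.45 for testis. The gap was 4.43 (SE 0.09, limma adjusted p = 7.79e-28), and it was 4.57, 4.32 and 4.39 at Oregon, Nebraska and Yerkes.

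EEF1A1, the form used by most cells, was lowest in cerebral cortex on its 3′ control set. It was at 13.26 ± 0.25 (SD, n = 6 arrays) in cerebral cortex, 0.12 (SE 0.05, limma adjusted p = 0.0394) below pancreas, and at 14.05 ± 0.30 in thymus, 0.17 (SE 0.05) above testis. The lower call in cerebral cortex was lost when all arrays were normalized together. Pancreas was then called lower on this set, at -0.46 from the mean over the tissues, with cerebral cortex at -0.23. The higher call in thymus was lost without Yerkes (gap 0.16). As deposited, the middle sets of the gene had the same calls as the 3′ set. Cerebral cortex was at 12.82 ± 0.27 and 12.72 ± 0.30 on them, and pancreas at 13.23 ± 0.15 and 13.16 ± 0.12. The 5′ set was instead lowest in pancreas, where it was called lower at 11.29 ± 0.37, with 11.98 ± 0.20 in cerebral cortex. Thymus was its highest tissue at 13.44 ± 0.31, without a higher call. EEF1A1 was measured only by control probesets of the array, of which the 3′ set was used, and its near-identical copies in the genome leave its values uncertain.

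The same control sets allow the 3′ and 5′ ends of this transcript to be compared. The 3′ set of EEF1A1 exceeded the 5′ set by 2.09 ± 0.56 (SD, n = 6 arrays) in pancreas, 1.41 ± 0.42 in fibroblast, 1.28 ± 0.07 in cerebral cortex, 0.84 ± 0.02 in testis and 0.61 ± 0.10 in thymus. Pancreas was highest at Oregon (1.87) and Yerkes (2.80), but at Nebraska fibroblast, with 1.87, lay above pancreas, with 1.62. Fibroblast was the highest tissue on both other controls of this kind. The 3′ set of actin exceeded the 5′ set by 2.00 ± 0.55 in fibroblast, 1.81 ± 0.47 in pancreas, 0.74 ± 0.34 in testis, 0.50 ± 0.25 in cerebral cortex and 0.24 ± 0.44 in thymus. For GAPDH the difference was 1.81 ± 0.58 in fibroblast, 1.58 ± 0.49 in pancreas, 0.82 ± 0.42 in cerebral cortex, 0.69 ± 0.29 in testis and 0.47 ± 0.36 in thymus. Fibroblast, with 27 higher calls of members, and pancreas, with 15 lower calls, thus had the largest 3′ excess on all 3 controls, and the part of this difference in those calls was not tested.

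Among the other elongation factors, EEF1D, a subunit of the complex that recharges eEF1A with GTP, was highest in cerebral cortex at 8.11 to 8.46, with a gap of 0.72 (SE 0.07). It was lowest in pancreas at 5.91 to 6.44, with a gap of -0.86 (SE 0.07, limma adjusted p = 1.17e-12). The arrays of neither tissue overlapped with those of any other tissue. EIF5A2, the less widely used form of the hypusine-bearing factor eIF5A, was lowest in thymus at 6.15 ± 0.15, below pancreas at 6.64 ± 0.17 (gap -0.49, SE 0.08), a call that was lost over the mean of its probesets (gap -0.04). Its mean was 7.66 in cerebral cortex, 7.59 in fibroblast and 7.21 in testis.

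EEF2 and EIF5A had no call. EEF2 was highest in pancreas at 7.49 ± 0.47 and 0.18 (SE 0.10, limma adjusted p = 0.087) above cerebral cortex, and it passed in pancreas when all arrays were normalized together. EIF5A was at 7.19 ± 0.53 in fibroblast, 0.20 (SE 0.14, limma adjusted p = 0.207) above thymus. Of the methyltransferases that modify these factors, EEF1AKMT3, which methylates eEF1A, was highest in pancreas at 8.53 to 8.91, and testis, next in order, lay at 7.73 to 8.09 (gap 0.85, SE 0.06, and 1.45 under joint normalization). EEF1AKMT1 and EEF1AKMT2 were lowest in pancreas by 0.45 (SE 0.05) and 0.39 (SE 0.08) as deposited. Of these, EEF1AKMT1 lost its call under joint normalization, where its gap was -0.02.

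Among the higher calls in cerebral cortex, the next largest gaps after EEF1A2 were those of EIF4E and EIF4E3 of the cap complex. EIF4E, the cap-binding protein, was at 8.40 to 9.28 with a median of 9.15 in cerebral cortex. The other tissues had medians of 7.58 in pancreas, 7.08 in testis, 6.22 in fibroblast and 6.14 in thymus, and none of their arrays exceeded 8.32. The gap to pancreas was 1.26 (SE 0.11, limma adjusted p = 1.79e-11) and stood at 1.58, 1.18 and 1.02 at Oregon, Nebraska and Yerkes.

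EIF4E3, a relative of eIF4E that binds the cap less tightly, was at 8.15 to 8.50 in cerebral cortex (probeset MmugDNA.3085.1.S1_at). The other tissues reached 7.46 in pancreas, 7.23 in testis, 6.79 in fibroblast and 6.59 in thymus. Its gap was 1.15 (SE 0.08), and its 3 other probesets were also called higher in cerebral cortex. EIF4E2, a relative known as a repressor of translation, had the reverse order, with 7.33 ± 0.27 in cerebral cortex, its lowest tissue (gap -0.48, SE 0.08), and 8.92 ± 0.42 in fibroblast, its highest (gap 0.47, SE 0.08).

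EIF4A2, a form of the helicase eIF4A, was at 12.62 to 13.21 in cerebral cortex, and testis, next in order, at 12.28 to 12.81. The arrays of these tissues overlapped over all centers but not within any center. The gap was 0.45 (SE 0.08, limma adjusted p = 2.62e-05). Fibroblast was its lowest tissue at 10.38 to 11.25, 0.69 (SE 0.08) below pancreas, and EIF4A2 was the only member called lower in fibroblast. Over the mean of its 6 probesets the gap in fibroblast was -0.08 and no longer passed.

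The scaffold proteins of the complex differed in pattern. EIF4G3 was highest in testis at 10.20 to 10.58 (gap 0.48 over cerebral cortex, SE 0.08) and lowest in pancreas at 7.99 to 8.62 (gap -0.52 to thymus, SE 0.08). EIF4G2, known for initiation without the cap, was at 11.03 ± 0.24 in pancreas, 0.55 (SE 0.07) below cerebral cortex, and at 12.26 to 12.51 on average in fibroblast, thymus and testis. After joint normalization the gap of EIF4G3 in pancreas was 0.04 and that of EIF4G2 was 0.00, so neither lower call in pancreas held, and that of EIF4G2 was also lost over the mean of its probesets (gap -0.04), whereas EIF4G3 in testis kept a gap of 0.56. EIF4ENIF1, the protein that carries eIF4E into the nucleus, was lowest in pancreas at 6.66 to 7.64 (gap -0.78 to fibroblast, SE 0.08), and -0.60 under joint normalization. It also had a higher call in testis, with a gap of 0.18 (SE 0.08, limma adjusted p = 0.0357). That call did not pass when any center was left out, and it was lost under joint normalization.

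EIF4G1, the main scaffold, was called higher in fibroblast (gap 0.47 over testis, SE 0.14, limma adjusted p = 0.00458), but this did not hold at each center. Fibroblast averaged 9.18 and testis 8.43 at Oregon, 8.93 and 8.01 at Yerkes, and 7.22 and 7.47 at Nebraska (n = 2 arrays each).

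**Figure D3:**
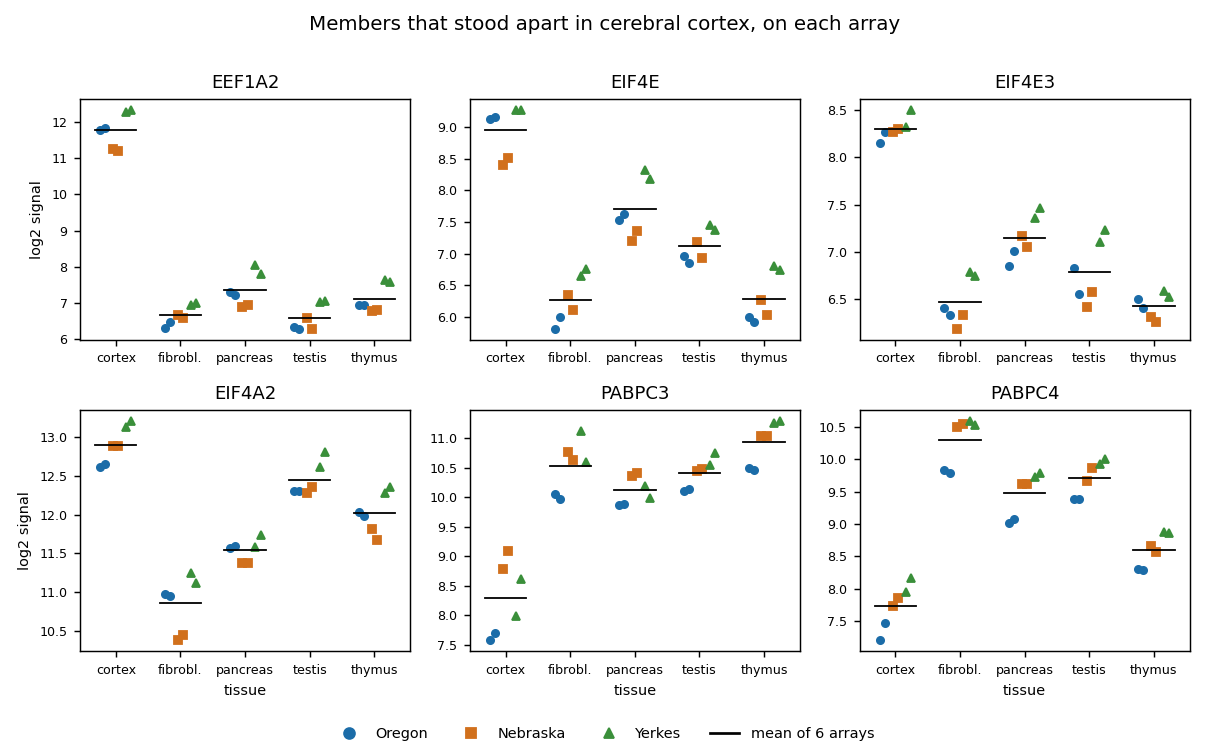
Log2 signal (y axis) of 6 members per array and tissue (x axis), with symbols for the 3 centers and bars for the mean of 6 arrays. The 6 cerebral cortex arrays lie above all others for EEF1A2, EIF4E and EIF4E3 and below all others for PABPC3 and PABPC4; for EIF4A2 they overlap with testis over all centers.

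The poly(A)-binding proteins, which coat mRNA tails and help to close the mRNA into a loop with the cap complex, were both lowest in cerebral cortex. PABPC4 (probeset MmugDNA.30329.1.S1_at) was at 7.21 to 8.16 in cerebral cortex. Its ranges were 8.29 to 8.87 in thymus, 9.01 to 9.79 in pancreas, 9.38 to 10.01 in testis and 9.79 to 10.59 in fibroblast. The gap in cerebral cortex was -0.86 (SE 0.06, limma adjusted p = 7.99e-14), and it was -0.74 under joint normalization. The higher call in fibroblast (gap 0.59 over testis, SE 0.06) was not kept under joint normalization, where fibroblast lay 0.02 below its nearest tissue.

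PABPC3 was at 7.58 to 9.09 with a median of 8.30 in cerebral cortex, and no array of another tissue lay below 9.87. Its gap of -1.82 to pancreas (SE 0.13, limma adjusted p = 5.23e-14) was the widest of the lower calls. In humans PABPC3 is an intronless copy of PABPC1 found in testis, so that its probeset may also bind close copies. Its testis arrays, at 10.10 to 10.74, did not stand above thymus, at 10.46 to 11.29.

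The subunits of eIF3, the largest initiation factor, shared a low level in cerebral cortex. All 11 measured subunits lay below the mean of the 5 tissues there, with a median of -0.86 (-0.94 under joint normalization). For 9 subunits cerebral cortex was the lowest tissue, and 7 of them passed: EIF3A, EIF3B, EIF3D, EIF3E, EIF3F, EIF3H and EIF3M. All 7 kept this call under joint normalization. No other probeset of these genes was called lower in cerebral cortex, and EIF3M had only 1 set. The other set of EIF3E was lowest in pancreas at 8.63 ± 0.15, with cerebral cortex at 8.71 ± 0.16. For EIF3H the other set was at 8.91 ± 0.10 in pancreas and 8.92 ± 0.23 in cerebral cortex. A set of EIF3D was lowest in pancreas (7.57 ± 0.42, cerebral cortex 7.69 ± 0.49), and another in cerebral cortex (7.67 ± 0.52, pancreas 7.93 ± 0.42).

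EIF3F was at 9.39 to 10.05 with a median of 9.86 in cerebral cortex, and at 10.48 to 10.77 in pancreas, next in order (gap -0.86, SE 0.07). EIF3E was at 9.49 to 9.80 in cerebral cortex and at 10.02 to 10.61 in pancreas (gap -0.82, SE 0.07). EIF3A, the largest subunit, was at 8.30 to 8.78 in cerebral cortex and at 8.96 to 9.38 in pancreas (gap -0.66, SE 0.09). In each of these 3 genes the cerebral cortex arrays lay below all other arrays. The other probesets of EIF3A did not all share this order, and a weaker set was lowest in fibroblast at 5.93 ± 0.43, where cerebral cortex was at 6.52 ± 0.31.

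Thymus stood at the other end for part of eIF3, with 6 subunits highest there and 4 of them called. EIF3F was at 11.39 to 12.08 in thymus and at 10.88 to 11.53 in fibroblast (gap 0.58, SE 0.07). EIF3E was at 11.04 to 11.55 in thymus and at 10.45 to 10.86 in testis (gap 0.62, SE 0.07). These arrays overlapped for EIF3F and not for EIF3E. EIF3H had a gap of 0.36 (SE 0.07). Under joint normalization the gaps of EIF3E and EIF3H were 0.18 and 0.20. The call of EIF3L, with a gap of 0.98 (SE 0.29), was lost under joint normalization, where its gap was 0.37 (limma adjusted p = 0.246), and without Yerkes, where it was 0.63.

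Fibroblast was above the mean in 10 of the 11 eIF3 subunits, with a median of 0.57 (0.27 under joint normalization), and EIF3B, EIF3I and EIF3M were called higher there, of which EIF3I kept the call under joint normalization. In pancreas the median subunit lay at -0.25 as deposited but at 0.32 under joint normalization, so no direction can be given. The subunit EIF3K had its lowest mean in thymus, at 7.03 ± 0.39, where cerebral cortex was at 7.12 ± 0.36, a gap of -0.08 (SE 0.16) that did not pass.

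All 6 measured genes of eIF2 and its exchange factor eIF2B lay below the mean of the 5 tissues in cerebral cortex, where EIF2S2 passed (gap -0.36, SE 0.06). EIF2S1, the subunit that the stress kinases phosphorylate, was at 9.68 to 10.19 in fibroblast and at 9.10 to 9.36 in thymus (gap 0.64, SE 0.07, limma adjusted p = 2.06e-09), with no overlap. The call held under joint normalization with a gap of 0.49. Another probeset of EIF2S1 was also called higher in fibroblast, at 8.13 ± 0.30. A further set was instead called higher in testis, at 9.17 ± 0.28, with fibroblast at 8.62 ± 0.29. That set was called lower in thymus, at 7.49 ± 0.31. The weakest set was highest in testis without a higher call. EIF2S3, the subunit that binds GTP, was highest in thymus at 8.65 to 9.87 (probeset MmugDNA.38345.1.S1_at), with a gap of 1.24 over testis (SE 0.12, limma adjusted p = 1.28e-10) and of 1.20 under joint normalization. EIF2S2 had a probeset with another order: the main set was highest in fibroblast at 11.36 ± 0.20, 0.28 above thymus, while a second set was highest in pancreas at 9.81 ± 0.19, where fibroblast was at 7.73 ± 0.26. Under joint normalization the main set lost its call in fibroblast too, with pancreas 0.51 and fibroblast 0.42 above the mean of the 5 tissues.

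EIF2AK3, the eIF2 kinase PERK of the endoplasmic reticulum, was among the 3 members called higher in pancreas. It was at 7.99 to 8.41 in pancreas, 7.55 to 8.04 in thymus, 7.30 to 8.04 in fibroblast, 6.32 to 6.85 in testis and 6.31 to 6.79 in cerebral cortex. The gap over thymus was 0.36 (SE 0.09, limma adjusted p = 0.000827), with 0.26, 0.46 and 0.36 at Oregon, Nebraska and Yerkes, and it was 0.88 under joint normalization. The pancreas arrays overlapped with thymus and fibroblast over all centers but not within any center. EIF2D, a factor that can deliver the first tRNA without eIF2, was highest in pancreas at 8.93 to 9.37, with a gap of 0.21 (SE 0.07) over fibroblast as deposited and of 0.98 under joint normalization. The call in pancreas was lost without Oregon (gap 0.18). EIF2D was lowest in cerebral cortex at 7.07 to 7.89 (gap -0.80, SE 0.07).

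EIF5, which triggers GTP hydrolysis on eIF2 once the start codon is found, was the clearest member of testis. It was at 11.08 to 11.62 in testis, and no other array exceeded 10.73. The gap over pancreas was 0.82 (SE 0.06, limma adjusted p = 5.60e-14), and it was 0.25 under joint normalization. All 4 other probesets of EIF5 were called higher in testis as well. EIF1B, a close relative of the start-codon factor eIF1, was highest in cerebral cortex (gap 0.23, SE 0.07), a call lost without Oregon (0.18) or Yerkes (0.16), and its lower call in pancreas (gap -0.51, SE 0.07) turned to a gap of 0.26 under joint normalization.

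EIF6, which keeps the ribosomal subunits apart, was at 9.58 to 10.39 in fibroblast, and testis, next in order, at 8.80 to 9.80 (gap 0.67, SE 0.07). EIF1AD, a relative of eIF1A, was at 8.31 to 9.02 in fibroblast and at 7.59 to 8.22 in thymus (gap 0.76, SE 0.06), with no overlap. ETF1, the release factor eRF1, was at 9.68 to 10.29 in fibroblast and at 9.01 to 9.59 in testis (gap 0.62, SE 0.08). All 3 kept their calls under joint normalization, with gaps of 0.25, 0.47 and 0.39.

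All 11 measured cytosolic synthetases lay above the mean of the 5 tissues in fibroblast, with a median of 0.55. Fibroblast was the highest tissue for 9 of them, and 7 were called: FARSA, FARSB, HARS1, LARS1, VARS1, WARS1 and YARS1. YARS1, the tyrosine synthetase (probeset MmuSTS.4754.1.S1_at), was at 9.40 to 10.17 in fibroblast and at 8.56 to 9.40 in cerebral cortex (gap 0.81, SE 0.08, limma adjusted p = 3.40e-10). VARS1, the valine synthetase, was at 7.93 to 8.92 in fibroblast and at 7.47 to 8.07 in pancreas (gap 0.71, SE 0.09), and over the mean of its probesets the gap was 0.16 and did not pass. HARS1, the histidine synthetase, was at 9.95 to 10.66 in fibroblast and at 9.45 to 9.96 in pancreas (gap 0.63, SE 0.06). Over all centers each of the 3 met or slightly overlapped another tissue, and within each center fibroblast lay above all other arrays.

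These calls depended on the normalization. After normalization of all 30 arrays together only VARS1 of the 7 passed, with a gap of 0.25 (limma adjusted p = 0.0129). The gap of YARS1 was then 0.04, and HARS1 lay 0.23 below pancreas (limma adjusted p = 0.00192). The median of the 11 genes was then 0.32 in fibroblast, with 10 genes above 0, and 0.37 in pancreas, where it was -0.17 as deposited. When the pancreas arrays were left out and the other 24 were normalized together, 6 cytosolic synthetases were called higher in fibroblast. HARS1, LARS1, VARS1, WARS1 and YARS1 were among the 7 called as deposited, MARS1 was added, and FARSA and FARSB were lost.

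Over all members, the 27 higher calls in fibroblast became 11 under joint normalization, where 13.2% of all genes were called. They became 25 without pancreas and with joint normalization of the other 24 arrays, where 20.4% of all genes were called with 1 tissue fewer to exceed, and 22 of these were among the 27.

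**Figure D4:**
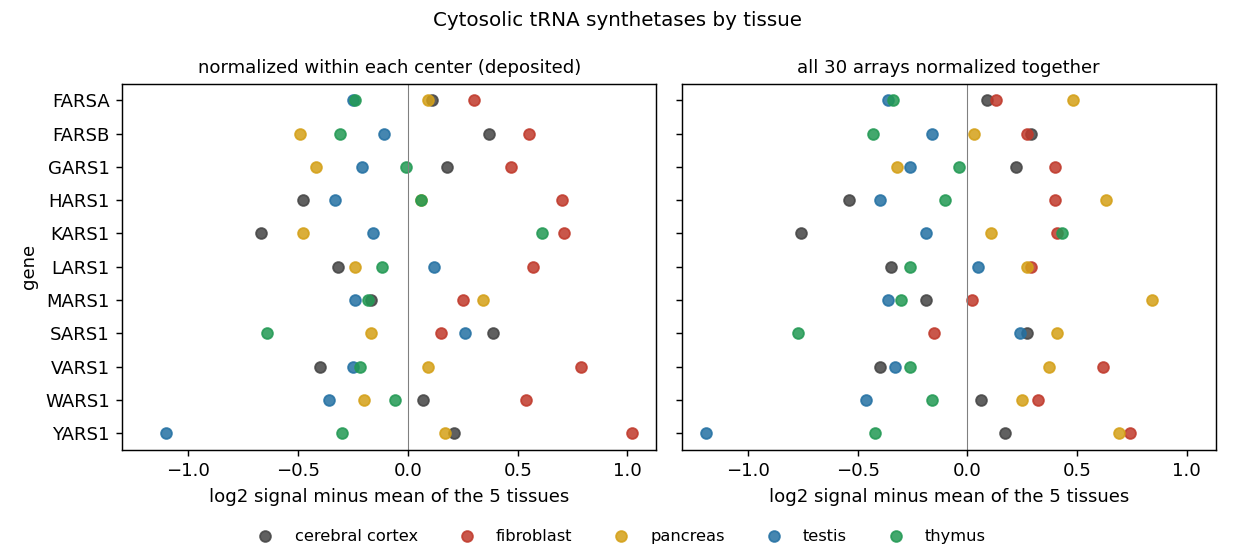
Log2 signal of the 11 cytosolic synthetases (rows) in each tissue, minus the mean of the 5 tissues (x axis), with the deposited normalization within each center (left) and with all 30 arrays normalized together (right); each point is the mean of 6 arrays. Fibroblast lies above 0 for 11 genes on the left and 10 on the right, while the pancreas points shift upward, with 5 genes above 0 on the left and 10 on the right.

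The lower calls in testis were YARS1, WARS1 and EEF1E1, a share near that of all genes. YARS1 was at 7.20 to 8.08 in testis, below every array of the other tissues, whose lowest value was 8.23 in thymus (gap -0.80, SE 0.08, limma adjusted p = 7.14e-10). EEF1E1, a scaffold of the complex that joins several synthetases, was at 6.42 to 6.87 in testis and at 6.80 to 7.45 in pancreas (gap -0.51, SE 0.09). WARS1, the tryptophan synthetase, was at 8.10 ± 0.36 in testis and at 8.27 ± 0.27 in pancreas, a gap of -0.17 (SE 0.08, limma adjusted p = 0.0463) that did not pass without Oregon (-0.14) or Yerkes (-0.19). SARS1, the serine synthetase, was lowest in thymus at 9.15 to 9.55, below pancreas at 9.59 to 10.06 (gap -0.47, SE 0.06).

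The mitochondrial synthetases had a median range over tissues of 0.89 (0.37 to 1.76). That of the cytosolic group was 1.03 (0.55 to 2.12), and the difference was not tested. Of the 12 mitochondrial synthetases measured, 4 were called higher in fibroblast (LARS2, SARS2, TARS2 and YARS2) and 4 lower in pancreas (HARS2, LARS2, NARS2 and RARS2). All but SARS2 and NARS2 kept these calls under joint normalization. RARS2, the arginine synthetase, had the widest range of the group. It was at 7.61 to 8.34 in testis and at 7.18 to 8.02 in fibroblast (gap 0.36, SE 0.06), and at 5.79 to 6.63 in pancreas, its lowest tissue (gap -0.22 to cerebral cortex, SE 0.06). Its other 3 probesets were highest in thymus, and over the mean of its probesets testis lay at -0.10 to its nearest tissue. These 3 sets had lower signals than the set used. AARS2, the alanine synthetase, was highest in thymus (gap 0.25 over testis, SE 0.07), a call lost without Nebraska (0.18).

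For 30 members (42.9%) the tissue differences varied with the center in a limma F test of the interaction, as they did for 33.4% of all genes. EIF3L had the largest F value, 123 (limma adjusted p = 9.86e-12). Its thymus arrays averaged 10.31, 11.57 and 11.89 at Oregon, Nebraska and Yerkes, while fibroblast averaged 10.25, 8.63 and 9.95 (n = 2 arrays each). Thymus was thus 0.06 above its nearest tissue at Oregon and 1.14 and 0.98 above it at Nebraska and Yerkes.

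GARS1, the glycine synthetase, had an F value of 16.4. Fibroblast averaged 8.56 at Oregon, 8.33 at Yerkes and 7.05 at Nebraska, where it lay below cerebral cortex at 7.47. Over all centers fibroblast was at 7.98 ± 0.74 and cerebral cortex at 7.69 ± 0.26, a gap of 0.29 (SE 0.17) that did not pass. EIF2S3, with an F value of 16.0, kept thymus on top at each center, by 1.02, 1.49 and 1.21 at Oregon, Nebraska and Yerkes, while its pancreas mean was 6.62, 8.04 and 7.50.

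**Figure D5:**
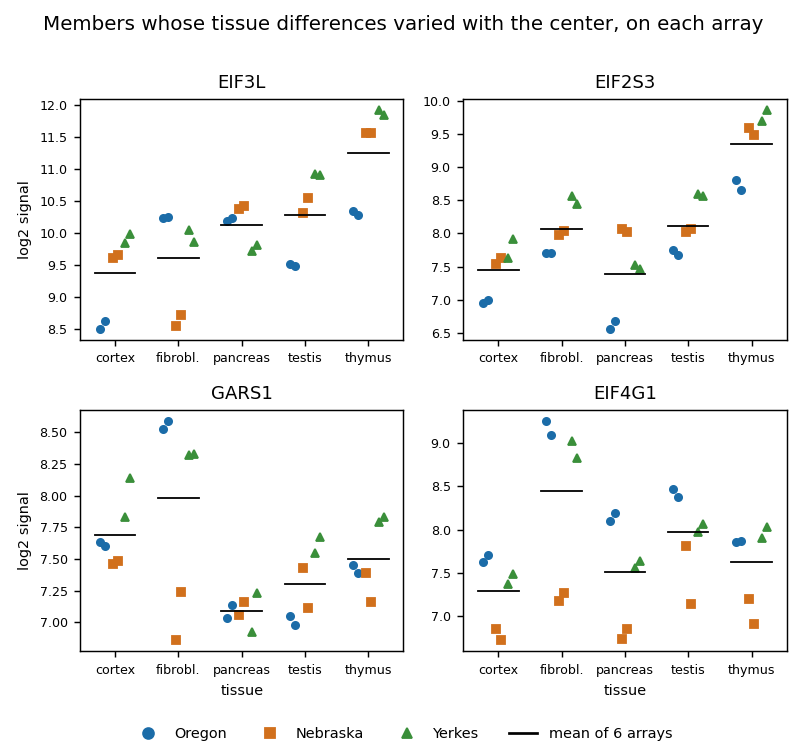
Log2 signal (y axis) of EIF3L, EIF2S3, GARS1 and EIF4G1 per array and tissue (x axis), with symbols for the 3 centers and bars for the mean of 6 arrays. In fibroblast the Nebraska arrays lie below those of both other centers for EIF3L, GARS1 and EIF4G1, whereas thymus is the highest tissue of EIF2S3 at each center.

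Other probesets of the members gave a partial check. The 38 members with more than 1 probeset had 78 others, of which 41 had the same highest tissue as the set used and 35 the same lowest tissue. Among the 40 that lay above the array median on all arrays, 29 shared the highest tissue. Over the mean of all probesets of a gene, several gaps were smaller but still passed. These were -0.54, -0.37 and -0.19 for EIF3F, EIF3E and EIF3A and 0.13 for EIF4A2 in cerebral cortex, 0.33, 0.24 and 0.37 for YARS1, EIF2S1 and PABPC4 in fibroblast, and 0.44 and 0.36 for EIF2S3 and EIF3F in thymus. For 7 members the set used was of a kind that can bind several transcripts, EEF1A1, EIF1, EIF3F, EIF3H, EIF3I, EIF3J and EIF4G1.

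Genes around the members were counted with the same calls. AIMP1 and AIMP2, the further scaffolds of the synthetase complex, were both higher in fibroblast, AIMP1 with a gap of 0.82 (SE 0.07) and AIMP2 with a gap of 0.77 (SE 0.07) over thymus, and these calls held under joint normalization, with gaps of 0.67 and 0.61. Both were lower in pancreas as deposited and not under joint normalization. Of 10 mitochondrial translation factors measured of 11 listed, 4 were higher in fibroblast (TSFM, GFM1, MTRF1 and MTFMT) and 6 lower in pancreas, against 3 and 4 under joint normalization. As deposited, 16.7% of all genes were called higher in fibroblast and 15.1% lower in pancreas. The elongation factor TUFM changed sides, being called lower in pancreas as deposited and higher there under joint normalization. Of 11 genes of the stress and amino acid response that acts through eIF2, out of 17 listed, 5 were higher in fibroblast and 4 in pancreas (4 and 4 under joint normalization). Of all genes, 16.7% were called higher in fibroblast and 21.2% in pancreas as deposited. Cerebral cortex held 2 higher calls (ATF3 and SLC7A11, all genes 13.3%). Cerebral cortex, testis and thymus held 3 lower calls each (all genes 12.1%, 4.95% and 9.3%). Asparagine synthetase ASNS, a target of this response, was at 10.89 in pancreas and 8.92 in cerebral cortex (gap 1.97, SE 0.07), and the transcription factor ATF4 had a gap of 0.28 (SE 0.06) in pancreas, which was 0.91 under joint normalization. TRIB3 was at 8.27 in fibroblast and 7.33 in pancreas (gap 0.95, SE 0.05, and 0.63 under joint normalization).

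Of 13 genes that control eIF4E and the kinase mTOR, out of 15 listed, 2 were higher in cerebral cortex (3 under joint normalization, all genes 13.3% as deposited). Fibroblast held 1 higher call (all genes 16.7%), pancreas 2 (all genes 21.2%) and thymus 2 (all genes 12.6%, 1 call under joint normalization). Under joint normalization RICTOR was higher in testis. Lower calls were held by 4 of them in pancreas (MTOR, RPTOR, RICTOR and TSC1, all genes 15.1%), of which TSC1 was lower there under joint normalization. In cerebral cortex MKNK1 and DDIT4 were called lower (all genes 12.1%), of which MKNK1 was lower there under joint normalization. Joint normalization added lower calls for RPS6KB2 in testis and AKT1S1 in thymus. MKNK1, a kinase that phosphorylates eIF4E, was at 9.16 in pancreas and 8.02 in testis (gap 1.14, SE 0.08, and 1.80 under joint normalization), and RPTOR, a subunit of the mTOR complex, was higher in cerebral cortex with a gap of 0.52 (SE 0.08). Of 8 genes of ribosome rescue and initiation help, out of 12 listed, 3 were higher in fibroblast (all genes 16.7%, 1 call under joint normalization). PABPN1, the nuclear poly(A)-binding protein, was at 9.97 in testis and 8.88 in thymus (gap 1.09, SE 0.13).

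The 6 measured proliferation markers were all called higher in thymus, under both normalizations. MKI67 averaged 10.56 in thymus, 8.53 in fibroblast, 6.99 in testis, 6.15 in pancreas and 5.82 in cerebral cortex. Their median deviation from the mean of the tissues was 1.23 in fibroblast, -1.74 in pancreas and -1.86 in cerebral cortex. As deposited, fibroblast held the most higher calls of members, and it was not the tissue highest in these markers. Under joint normalization fibroblast and pancreas held 11 higher calls each. The part of cell division in the levels of the members was not tested.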

How the data were processed

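The values were those deposited by the authors for 30 GeneChips, in log2 units. Per the methods, background was corrected with the MAS procedure, arrays were quantile normalized separately for each center, and all arrays were summarized together by RMA. A difference in overall RNA composition between tissues could shift levels under such scaling. Depth does not apply to arrays, and precision is limited by the 6 arrays per tissue.

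Of 52865 probesets, 86 controls without a symbol were left out and 52779 were tested. Symbols came from the GEO platform annotation (24969 probesets with 1 symbol, 361 with several, 27535 with none listed), and all 70 members matched RefSeq by Entrez ID. Differences were fitted with limma (version 3.58.1, R 4.3.3) with terms for tissue and center, and p-values were adjusted by Benjamini-Hochberg over all probesets within each of 10 tissue pairs. The script was tested on simulated data. The interaction was tested with the moderated F statistic.

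Named were, per tissue, up to 8 members called higher and up to 6 called lower with the largest gaps, a set of core factors, the 3 members with the largest interaction F and genes whose probesets disagreed by over 1. Other genes named were chosen after their values were seen. The members, lists and tests were chosen with earlier results of these data known. Alternatives were no center term, joint normalization, a filter on low signal, averaged aliquots, blocks, all probesets of a gene, and leaving out centers or tissues. Sequences were not used here.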

Additional observations from a re-analysis of the deposited data

Results flagged for a closer look

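On single arrays, 2 values of the named members stood apart within their tissue by Dixon's test. EIF2AK3 was at 6.32 on aliquot 1 of testis from Nebraska, where the nearest of the other 5 testis arrays was at 6.69. EIF3E was at 9.80 on aliquot 2 of cerebral cortex from Yerkes, and the nearest array was at 9.60. Dixon's test was applied to 205 groups of 6 arrays, and about 1 in 20 groups is expected past its limit by chance. The tissue differences depended on the center most in EIF3L (interaction F of 123), GARS1 (16.4) and EIF2S3 (16.0).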

How the results depend on the processing

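The following counts of members called changed by over 1.5 times. The share of all genes called in the same fit stands in brackets. Without a center term, 13 members were higher in fibroblast in place of 27 (10.8%), 2 higher in testis in place of 4 (5.47%), 4 higher in thymus in place of 8 (7.83%), 11 lower in cerebral cortex in place of 23 (5.89%) and 9 lower in pancreas in place of 15 (9.18%). With all 30 arrays quantile normalized together, 11 were higher in fibroblast (13.2%), 11 higher in pancreas in place of 3 (22.2%), 3 lower in fibroblast in place of 1 (5.93%), 8 lower in pancreas (11.3%) and 4 lower in thymus in place of 2 (10.2%). Over the mean of all probesets of a gene, 5 were higher in pancreas (21.4%). Without the pancreas arrays, 7 were higher in testis (12.3%), 3 lower in fibroblast (9.71%) and 6 lower in thymus (12.7%), and 19 members in place of 30 had an interaction (23.8%). Without these arrays and with joint normalization of the other 24, an alternative added after the data were seen, 7 were higher in testis (12.7%), 4 lower in fibroblast (9.41%) and 8 lower in thymus (13.7%). Leaving out 1 center changed no count of calls by over 1.5 times: the lowest and highest counts were 5 and 6 higher in cerebral cortex, 19 and 29 in fibroblast, 3 and 4 in pancreas, 3 and 4 in testis and 6 and 8 in thymus, and 18 and 25 lower in cerebral cortex. Why these counts moved was not tested.

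Of 687 values of the named members under alternatives, 639 kept direction and call, 42 kept only the direction and 6 reversed, and 27 of 47 named results kept their call under every alternative run. Under joint normalization the reversed gaps were -0.23 for HARS1 and -0.02 for PABPC4 in fibroblast, and 0.00 for EIF4G2, 0.04 for EIF4G3 and 0.26 for EIF1B in pancreas. Among the calls also lost under this normalization were PABPC3 in thymus and EIF4ENIF1 in testis. RARS2 in testis was at -0.10 over the mean of its probesets. Over that mean VARS1 in fibroblast (0.16), EIF4A2 in fibroblast (-0.08), EIF4G2 in pancreas (-0.04) and EIF5A2 in thymus (-0.04) no longer passed. Calls were also lost without Oregon for EIF1B in cerebral cortex (0.18), EIF2D in pancreas (0.18), WARS1 in testis (-0.14) and PABPC3 in thymus (0.38), without Nebraska for AARS2 in thymus (0.18), and without Yerkes for EIF1B (0.16), WARS1 (-0.19), EEF1A1 in thymus (0.16) and EIF3L in thymus (0.63). The deviations of arrays with the same aliquot number had median correlations of -0.02, 0.07 and 0.02 within Oregon, Nebraska and Yerkes. Single pairs ranged from -0.38 to 0.43 at Yerkes. With center and aliquot number as a replicate block the counts were 6, 27, 3, 4 and 8 higher and 21, 1, 15, 3 and 2 lower in cerebral cortex, fibroblast, pancreas, testis and thymus, and 29 members had an interaction. A random block for tissue and center had a consensus correlation of 0.36 and left 18 members lower in cerebral cortex.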
